A study of Mus musculus with 2 samples.

Results

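RNA of T cells and natural killer (NK) cells of mouse bone marrow was followed here through 135 cell barcodes selected for it, out of 14142 that passed the quality filters and 17092 that were deposited. A barcode was selected on its measured counts when Cd3d, Cd3e, Cd3g, Trbc2 and Klrd1 together had at least 3 unique molecular identifiers (UMIs, each tagging 1 captured RNA molecule) and when Cd79a, Siglech and Mki67 each had fewer than 2. It also needed 200 to 9000 detected genes, at least 1000 UMIs and at most 30% mitochondrial UMIs. The control (Ctrl) library gave 104 such barcodes out of 8795 kept, and the Map4k4-cKO (cKO) library gave 31 out of 5347. Of these, 5 in Ctrl and 13 in cKO had UMIs of Cd3d alone among the selection genes. They proved rich in neutrophil RNA and nearly free of T cell markers, and they are not counted as T or NK cells below. Another Ctrl barcode, also rich in neutrophil RNA and with no T cell marker UMI, had 1 Cd3g UMI and stays counted. With fewer barcodes left in cKO, most of the description concerns the Ctrl library.

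The study profiled marrow by droplet-based 3′ single-cell RNA sequencing to ask how loss of the kinase Map4k4 alters blood cell formation, above all that of neutrophils. Each library was a mixture of c-Kit-positive cells, enriched on beads, with red-cell-lysed marrow, from mice labelled 13 to 14 weeks old on a C57BL/6 background. The cKO mice were Mx1-Cre Map4k4 f/f and had received poly I:C, which induces the interferon-responsive Mx1 promoter that drives Cre in blood-forming and in other cells. The controls were littermates that the methods write as Mx1-Cre Map4k4-/-, and the sources used here give neither whether the controls received poly I:C nor how many mice entered a library. With 1 library per group, a difference between Ctrl and cKO has no replicate check and cannot be told apart from a difference between these preparations, so no p-value is given. The Ctrl library held 71527701 UMIs and the cKO library 64393950 UMIs. The selected barcodes held 388543 UMIs in Ctrl and 282962 in cKO, with a median of 3192.5 and 7364 UMIs per barcode. All intervals below are 95% intervals of counting error only.

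T cells recognize antigen through a receptor made of a pair of chains, alpha with beta or gamma with delta, which signals through the CD3 chains encoded by Cd3d, Cd3e and Cd3g and through the zeta chain encoded by Cd247. NK cells carry no rearranged antigen receptor. They weigh activating and inhibitory receptors, many of them encoded in the Klr gene cluster, and kill with granzymes and perforin. Both kinds recirculate through marrow, where memory T cells, regulatory T cells and developing NK cells reside. CD94, the product of Klrd1, pairs with NKG2 proteins and is carried by NK cells and also by some cytotoxic T cells, so the selection joins both kinds without dividing them.

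A first check set the selection against genes it had not used. Of the 5 selection genes, Cd3d alone brought in a separate group of barcodes. In Ctrl, 5 of the 104 barcodes had at least 3 Cd3d UMIs and no UMI of Cd3e, Cd3g, Trbc2 or Klrd1, and in cKO 13 of the 31 did. These Cd3d-only barcodes were full of neutrophil RNA. The 10 neutrophil marker genes (S100a8, S100a9, Ngp, Camp, Ltf, Lcn2, Retnlg, Mmp8, Elane and Mpo, which encode granule and calcium-binding proteins of neutrophils) took 17.1, 26.6, 34.6, 36.7 and 41.2% of their UMIs in Ctrl and 38.6 to 50.8% in cKO, with a median of 46.0%. In the other selected barcodes the median was 1.92% in Ctrl (0.854 to 40.5%) and 1.19% in cKO (0.646 to 2.11%). The 2 groups of barcodes thus did not overlap in cKO, whereas in Ctrl 1 other barcode, at 40.5%, lay among the Cd3d-only ones.

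T cell markers followed the same division. Of 12 T cell markers (Trac, Trbc1, Cd5, Cd6, Cd28, Bcl11b, Lef1, Themis, Camk4, Cd4, Cd8a and Cd8b1), none had a UMI in the 5 Ctrl Cd3d-only barcodes, and a single UMI of Cd6 was found in the 13 cKO ones. Of 12 NK cell markers, Tyrobp and Fcer1g, adaptor genes that neutrophils also use, had UMIs in every Cd3d-only barcode, and Cd244a had 1 UMI in cKO. Neutrophil barcodes (S100a8 and S100a9 together at least 5% of UMIs, 3271 in Ctrl) held a Tyrobp UMI in 95% and an Fcer1g UMI in 92.5% of cases. Without the Cd3d-only barcodes, 91 of 99 Ctrl barcodes and 16 of 18 cKO barcodes had at least 1 T cell marker, and 52 and 10 had at least 3. At least 1 NK cell marker was present in 72 of 99 and 15 of 18, and at least 3 in 41 and 12. Leaving Tyrobp and Fcer1g out of the NK list, 58 of the 99 Ctrl barcodes and 13 of the 18 cKO barcodes had an NK cell marker. By that shorter list, 96 of the 99 Ctrl barcodes and all 18 cKO barcodes had a UMI of some T or NK cell marker. The other 3 Ctrl barcodes had none. The data thus went against the label of T and NK cells for the Cd3d-only barcodes, which are called so below and kept apart. For those 3, the data gave the label no marker beyond the selection genes, and those 3 stay among the 99. By neutrophil RNA, the Ctrl barcode at 40.5% resembled the Cd3d-only ones, with 3 Cd3d UMIs, 1 Cd3g UMI and no T cell marker UMI. Since it was not Cd3d-only, it stays among the 99 as well.

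**Figure D1:**
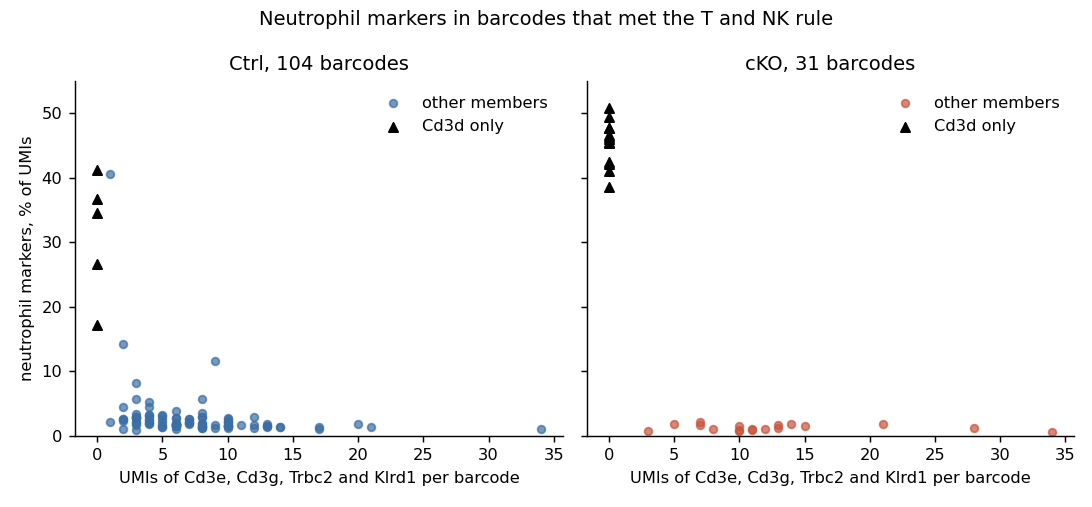
Each point is 1 selected barcode, with the UMIs of Cd3e, Cd3g, Trbc2 and Klrd1 on the horizontal axis and the percent of its UMIs from 10 neutrophil markers on the vertical axis, for 104 Ctrl and 31 cKO barcodes. Triangles mark the Cd3d-only barcodes, which lie at 17.1 to 41.2% in Ctrl and 38.6 to 50.8% in cKO, while all other points lie under 5% apart from 7 in Ctrl.

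Cd3d UMIs were also found outside the selected barcodes. In neutrophil barcodes, which by definition have fewer than 3 selection UMIs, a Cd3d UMI was present in 6.51% of 3271 in Ctrl and 5.87% of 3047 in cKO. Cd3e was present in 0.0917% and 0.0656%, Cd3g in 0.245% and 0.131%, Trbc2 in 0.306% and 0.131%, and Klrd1 in 0.153% and 0.0985%. More neutrophil barcodes thus held a Cd3d UMI than a Trbc2 UMI. Where the Cd3d UMIs of neutrophil barcodes came from was not tested. Klrd1 behaved differently and had a UMI in 24 of 72 Ctrl plasmacytoid dendritic (pDC) barcodes, or 33.3% (22.7 to 45.4%), in which Cd3d, Cd3e, Cd3g and Trbc2 were all at 0. A count of 0 in 72 barcodes allows a share with a UMI of up to 4.17% by the floor of 3 counts, or 4.99% as the upper bound of the exact interval.

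The CD3 genes are neighbours on chromosome 9 of GRCm38. Cd3d, the delta chain gene, runs from 44981786 to 44987339 on the plus strand, and Cd3g, the gamma chain gene, from 44969572 to 44980431 on the minus strand, so that their starts lie head to head 1354 bases apart. Cd3e, the epsilon chain gene, runs from 44998740 to 45009627 on the minus strand, where 2 other annotated genes, Gm48719 and Gm48720, overlap it. The promoters of these 3 genes are shown because Cd3d, unlike its neighbours, was counted alone in neutrophil-rich barcodes. They were taken from RefSeq on GRCm38.p6, from 250 bases before to 50 bases after the gene's start, 5′ to 3′ along the gene's strand, at chr9:44981536-44981835 (plus) for Cd3d, chr9:44980382-44980681 (minus) for Cd3g and chr9:45009562-45009861 (minus) for Cd3e. Capitals mark matches on either strand to CTTTGA, the core that TCF and LEF factors of T cells bind, and to CACCTG, an E-box.
Cd3d: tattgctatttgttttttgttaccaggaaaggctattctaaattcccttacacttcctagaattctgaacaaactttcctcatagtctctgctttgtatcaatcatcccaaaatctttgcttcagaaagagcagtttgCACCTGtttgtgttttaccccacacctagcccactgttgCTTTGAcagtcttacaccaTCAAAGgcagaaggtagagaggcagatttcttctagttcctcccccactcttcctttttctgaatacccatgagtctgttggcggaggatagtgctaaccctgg
Cd3g: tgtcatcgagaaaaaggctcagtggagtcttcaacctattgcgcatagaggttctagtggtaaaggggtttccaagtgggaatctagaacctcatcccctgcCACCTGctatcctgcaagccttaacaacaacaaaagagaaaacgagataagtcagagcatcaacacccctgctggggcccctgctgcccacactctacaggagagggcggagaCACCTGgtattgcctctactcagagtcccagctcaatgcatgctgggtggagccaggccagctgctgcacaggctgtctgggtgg
Cd3e: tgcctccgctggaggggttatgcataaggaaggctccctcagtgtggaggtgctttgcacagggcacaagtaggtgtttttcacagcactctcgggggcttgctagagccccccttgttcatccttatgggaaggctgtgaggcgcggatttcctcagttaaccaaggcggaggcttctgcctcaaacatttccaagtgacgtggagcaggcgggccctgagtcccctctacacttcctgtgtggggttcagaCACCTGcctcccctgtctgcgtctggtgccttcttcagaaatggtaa
The Cd3d window held CTTTGA 2 times and CACCTG 1 time, the Cd3g window held CACCTG 2 times and the Cd3e window held it 1 time. TGTGGT, read by RUNX factors, and TTGCNNAA, read by C/EBP factors of myeloid cells, had no match in the 3 windows. Of 32851 mouse promoters of the same length, 16.0% hold CTTTGA, 20.2% CACCTG, 16.8% TGTGGT and 10.8% TTGCNNAA. A match describes the letters of a window and is not a binding site.

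The selection threshold was passed narrowly by many barcodes. The summed selection UMIs ran from 3 to 36 in Ctrl and from 3 to 49 in cKO, with a median of 8 in both. Exactly 3 UMIs were found in 15 Ctrl barcodes, 5 of them Cd3d-only, and in 11 cKO barcodes, 10 of them Cd3d-only. Just outside, exactly 2 UMIs were found in 36 Ctrl barcodes (19 with Cd3d UMIs alone) and 32 cKO barcodes (31 with Cd3d UMIs alone). At 10 or more UMIs, there were 36 Ctrl and 14 cKO barcodes and no Cd3d-only one among them. The libraries shared 3010 barcode sequences. Of the selected barcodes, 25 of Ctrl and 11 of cKO also occurred in the other library, where none of them reached 3 selection UMIs.

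Map4k4 was the targeted gene. It lies on chromosome 1 of GRCm38 from 39900913 to 40026310 on the plus strand and encodes a serine/threonine kinase of the MAP4K family. In the 104 selected Ctrl barcodes it had 56 UMIs, or 144 CPM (UMIs scaled to all UMIs of the barcodes summed, 109 to 187), in 36 barcodes. In the 31 cKO barcodes it had 34 UMIs, or 120 CPM (83.2 to 168), in 19 barcodes, which gives -0.26 as the log2 ratio between cKO and Ctrl (-0.92 to 0.38). Without Cd3d-only barcodes the levels were 147 CPM from 54 UMIs in Ctrl and 145 CPM from 16 UMIs in cKO, a log2 ratio of -0.02 (-0.92 to 0.81). A reduction of Map4k4 RNA beyond counting error was not seen in these cells, and both intervals reached down to -0.92. Scaling by the median of ratios turns the ratio over all selected barcodes to 0.28, which lies within the same interval. Over all kept barcodes, the log2 ratio was -0.18 (-0.24 to -0.12), and in neutrophil barcodes it was -0.34 (-0.43 to -0.25). B-lineage barcodes (Cd79a at least 3 UMIs) had 182 Map4k4 UMIs in Ctrl, or 131 CPM (112 to 151), and 13 UMIs in cKO, or 34.1 CPM (18.2 to 58.3), and their log2 ratio was -1.94 (-2.88 to -1.13). The counts were made near the 3′ end and per gene, and which exon was floxed is not given in the sources used here, so these UMIs do not test whether the deletion took place. In what follows, Ctrl and cKO stand for the libraries labelled so.

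The 99 Ctrl barcodes, without the Cd3d-only ones, carried a mixed T and NK program. Against the other 8691 kept Ctrl barcodes, the genes with the highest log2 ratio of CPM for all 104 were Trac (9.23), the constant part of the T cell receptor alpha chain, Xcl1 (8.87), a chemokine of NK and CD8 T cells, Gm2682 (8.84), Il2rb (8.76), the beta chain of the IL-2 and IL-15 receptors, and Ccl5 (8.51), a chemokine of cytotoxic lymphocytes. Txk (8.51) and Skap1 (8.05) of receptor signalling, the transcription factor Bcl11b (8.27) and the NK receptors Klre1 (8.20) and Klrb1c (8.20) completed the first 10. Here and below, genes named as highest or lowest are so among those with at least 200 CPM in 1 of the sets compared. These ratios describe barcodes that were chosen on 5 genes of the same program and are no test. Where a gene is given below as a number or share of barcodes with a UMI, the share in Ctrl neutrophil barcodes serves as the background. It stands beside the gene or, for 35 genes named in the next paragraphs without it, was at most 1.44% (Ikzf2). Shares in B-lineage or pDC barcodes are given for few genes, so a low background does not make a gene particular to T and NK cells. The median depth was 3166 UMIs in the 99 barcodes and 3008 in neutrophil barcodes. Counts come from 3′ ends and are not divided by gene length, so levels of different genes are not ranked.

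Of the selection genes, Trbc2, the second constant segment of the T cell receptor beta chain on chromosome 6 (41546730 to 41548352, plus strand), had 335 UMIs in 77 of the 99 barcodes. Cd3d had 206 UMIs in 74 barcodes, Cd3g 156 UMIs in 73 and Cd3e 126 UMIs in 58, while Klrd1, on the same chromosome from 129591782 to 129598775 on the plus strand, had 107 UMIs in 49. These values chose the barcodes. Among receptor genes that did not enter the selection, Trbc1, the first beta constant segment, had 182 UMIs in 58 barcodes (58.6%, background 0.336%). Trac had 80 UMIs in 45 barcodes (45.5%, background 0.0306%), and Cd247, the zeta chain, had 31 UMIs in 28 (28.3%, background 0.153%).

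Some barcodes carried gamma-delta chain RNA. Trdc, the delta constant segment, had 35 UMIs in 14 of 99 barcodes (14.1%, 7.95 to 22.6%), and 3 of these 14 also had a Trac UMI. The gamma constant segments Tcrg-C1, Tcrg-C2 and Tcrg-C4 had 8, 21 and 14 UMIs in 5, 13 and 11 barcodes. Trbc1 and Trbc2, alternative beta segments whose near-identical sequences can share reads, were detected together in 42 barcodes, against 16 with Trbc1 alone and 35 with Trbc2 alone. Their separate counts are therefore uncertain. Variable segments of the receptor genes were seldom caught by 3′ sequencing: 21 of 176 listed segments had 46 UMIs in 29 of the 99 barcodes, and Trgv2 accounted for 19 of them.

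Coreceptor RNA was sparse. Cd4, the coreceptor of helper and regulatory T cells, had 12 UMIs in 7 of 99 barcodes (7.07%). Cd8a had 40 UMIs in 14 barcodes and Cd8b1 had 31 UMIs in 15, with both in 10. Among barcodes with at least 2 CD3 UMIs (83 without the Cd3d-only ones), 7 had Cd4 and no Cd8 gene, 17 had Cd8a or Cd8b1 and no Cd4, none had both, and 59 had neither. Of the 83, these shares were 8.43% for Cd4 (3.46 to 16.6%) and 20.5% for Cd8 (12.4 to 30.8%). A barcode with neither may still be a CD4 or CD8 T cell whose coreceptor was not sampled. Of the other surface genes, Cd2, an adhesion receptor, was found in 52 barcodes, the costimulatory receptors Cd27 and Cd28 in 45 and 31, and the T cell receptor modulators Cd6 and Cd5 in 21 and 17.

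The Cd4 and Cd8 barcodes differed in what else they held. The 7 Cd4 barcodes all had Trac, with 15 UMIs, and 5 of them had Ikzf2, the gene of the factor Helios, with 50 UMIs. Foxp3, the lineage factor of regulatory T cells, had 5 UMIs in 2 of the 7 and was at 0 in the 17 Cd8 barcodes. Over all 99 barcodes, Foxp3 had 12 UMIs in 6, of which 5 also had Ikzf2 and 5 had Trac. Ccl5 went the other way, with 175 UMIs in 9 of the 17 Cd8 barcodes and 2 UMIs in 2 of the 7 Cd4 barcodes. The share of Cd8 barcodes with Ccl5, 52.9% (27.8 to 77.0%), was no higher than that of all 99, given below. Nkg7, a granule membrane gene, was found in 15 of 17 Cd8 and 3 of 7 Cd4 barcodes (background 13.3%). The chemokine receptor gene Cxcr6 had 13 UMIs in 8 Cd8 barcodes and none in Cd4 barcodes, which held 22354 UMIs against 69946. With 7 barcodes, a count of 0 says little.

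Genes of antigen receptor signalling were widespread. All 18 listed genes were detected, and 98 of the 99 barcodes had a UMI of at least 1 of them, as did 1862 of 3271 neutrophil barcodes. The list took 0.299% of the UMIs of the 99 and 0.0274% of those of neutrophil barcodes. Lck, the kinase that phosphorylates the CD3 chains, had 96 UMIs in 58 barcodes (58.6%, background 0.214%). Its relative Fyn was found in 58, the adaptor Skap1 in 57 and the Tec kinase Txk in 51 (background 0.856, 0.153 and 0.183%). Zap70, which docks on phosphorylated chains, was found in 26 barcodes and its substrate Lat in 43. Lcp2, another adaptor of this pathway, was found in 41 (41.4%), not far from its background of 35.3%. Ptprcap, which binds the CD45 phosphatase, was found in 72 (background 6.11%) but also in 69.0% of the 374 Ctrl B-lineage barcodes.

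Transcription factors of both lineages were present. Ets1, a factor of lymphocytes, had 261 UMIs in 81 of 99 barcodes but also a UMI in 29.9% of neutrophil barcodes. The T cell factors Tcf7 and Bcl11b were found in 48 and 44 barcodes (background 0.183 and 0.122%). Eomes and Tbx21, which direct NK and memory CD8 programs, were found in 34 and 13 barcodes with 55 and 16 UMIs (background 0.0306% for each). Id2, needed for NK and innate lymphoid cells, had 186 UMIs in 56 barcodes, with a background of 23.5%. Zbtb16, the factor of NKT cells, was near the limit, in 4 barcodes.

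Among cytotoxic and cytokine genes, Ccl5 had 884 UMIs in 67 of the 99 barcodes, or 2400 CPM (2245 to 2564), against 3.02 CPM in neutrophil barcodes (background 0.887%). Nkg7 had 246 UMIs in 73 barcodes and Ctsw, a cathepsin of cytotoxic cells, 119 UMIs in 60. Xcl1 had 130 UMIs in 41 barcodes, 39 of which also had Ccl5. The killing genes themselves had few UMIs. Prf1, the perforin gene, had 24 UMIs in 19 barcodes, Gzmb 13 UMIs in 7, Gzma 3 UMIs in 2 and Ifng, the interferon gamma gene, 6 UMIs in 4. At a background of 0.275%, the 2 of 99 barcodes with granzyme A RNA (2.02%, 0.246 to 7.11%) were too few to describe.

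NK receptors were found in a large part of the barcodes. All 24 listed receptor and adaptor genes had at least 1 UMI. Klrk1, the gene of the activating receptor NKG2D, had 152 UMIs in 45 barcodes (45.5%, background 0.397%). Klrb1c, which encodes NK1.1 in C57BL/6 mice, had 116 UMIs in 40, Klre1 90 UMIs in 35, and Klrc2 and Klrc1, the NKG2 partners of Klrd1, 63 UMIs in 32 and 70 UMIs in 30. Ncr1, the gene of NKp46, had 39 UMIs in 17 barcodes. The Ly49 genes ran from Klra7 in 22 barcodes to Klra5 in 2, and since they are near-identical copies their separate counts are uncertain. Klrg1 and S1pr5, genes of fully mature NK cells, had 1 and 2 UMIs.

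Of 24 homing and memory genes, Il2rb had 288 UMIs in 70 barcodes (70.7%, background 0.275%) and Ly6c2, a surface gene of memory CD8 T cells that neutrophils also carry, had 304 UMIs in 61 against a background of 86.1%. Il7r, the IL-7 receptor gene, was found in 31 barcodes, and the chemokine receptor genes Ccr2 (background 4.07%), Cxcr6 and Cxcr3 in 34, 20 and 18. Ccr7, which guides naive T cells into lymph nodes, was found in 5. The GIMAP genes, small GTPases of lymphocytes, were widespread, with all 8 genes detected and a UMI in 96 of 99 barcodes. Gimap3 was found in 75 and Gimap4 in 72, each against 0.581% of neutrophil barcodes and 18.4 and 21.4% of B-lineage barcodes. Areg, Il13 and Il5, genes of group 2 innate lymphoid cells, were at 0 in all 99, which allows a level of up to 3 UMIs over 368305.

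Detection rests on depth. After each barcode was thinned to 1000 UMIs, Cd3d was seen in 46.5% of the 99 barcodes in place of 74.7%, Klrd1 in 21.2% in place of 49.5% and Ccl5 in 60.6% in place of 67.7%. The background thinned as well, to 2.42% for Cd3d in neutrophil barcodes. Of the 228 listed genes, the number found in at least 10% of barcodes went from 145 to 82.

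**Figure D2:**
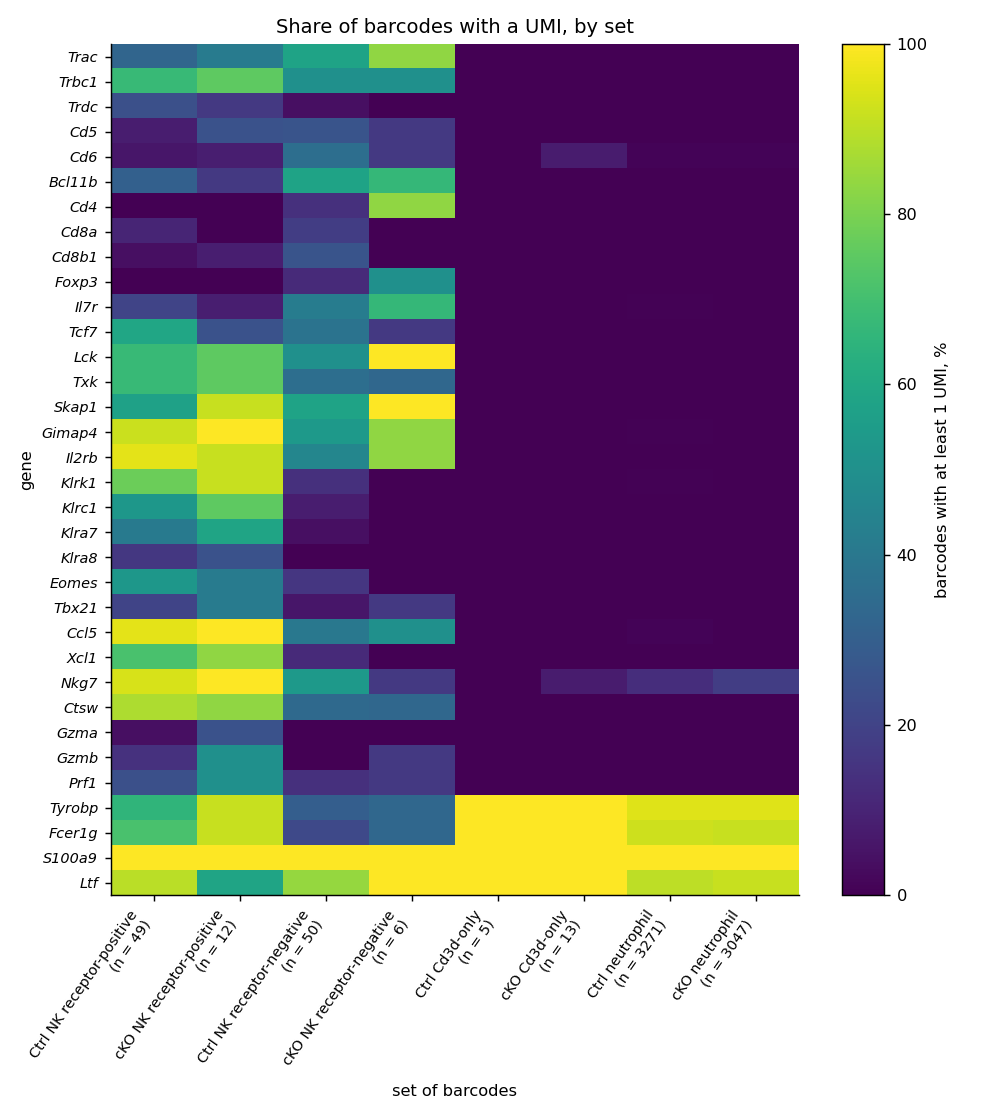
Rows are genes, columns are sets of barcodes in the Ctrl and cKO libraries with their number, and colour gives the percent of barcodes with at least 1 UMI of the gene. Receptor and granule genes fill the columns of NK receptor-positive barcodes, Cd4 and Foxp3 appear in the NK receptor-negative ones alone, and the Cd3d-only columns resemble the neutrophil columns, with Tyrobp, Fcer1g, S100a9 and Ltf.

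The 99 barcodes were next divided by Ncr1, Klrb1c and Klre1, none of which entered the selection. This division was chosen after values had been seen. At least 1 UMI of these 3 genes was found in 49 Ctrl barcodes (49.5%, 39.3 to 59.7%), with a median of 3747 UMIs, and none in 50, with a median of 2920.5 UMIs. Of the 49 NK receptor-positive barcodes, 5 had no CD3 UMI, and the others had at least 1. Cd3d had 114 UMIs in 37 NK receptor-positive barcodes and 92 UMIs in 37 NK receptor-negative ones. Since CD3 UMIs helped to select the barcodes on both sides, these counts say little of how CD3 RNA relates to the division. Trac and Klrb1c were found together in 15 of the 99 barcodes, and Trac and Ncr1 in 2. NK cells, NKT cells, T cells that bear NK receptors and barcodes of more than 1 cell would all enter the positive set, and they cannot be told apart here.

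Receptor genes beyond the dividing 3 followed the division. Over the 2969 genes with at least 20 UMIs in the 2 sets, 6.33% were at least 2-fold higher in NK receptor-positive barcodes and 5.76% at least 2-fold lower, with a median log2 ratio of CPM of 0.01. Of the NK receptor and adaptor list, 14 genes could be compared, with a median log2 ratio of 2.85. Of these, 10 were at least 2-fold higher and none at least 2-fold lower. Klrk1 had 139 UMIs in 38 of 49 barcodes against 13 UMIs in 7 of 50, a log2 ratio of 3.30 (2.47 to 4.24). Klrc2 (2.88) and Klrc1 (2.83) behaved alike, and Klra8, an activating Ly49 receptor gene, had 57 UMIs in 8 barcodes against 0, a log2 ratio of at least 4.12 against a floor of 3 UMIs over the negative set. The adaptor genes Tyrobp, Hcst and Fcer1g were higher by less, at 0.90, 0.80 and 0.69. Cd7 (3.88, 80 against 5 UMIs) and Cd160 (3.68, 42 against 3 UMIs), surface genes of NK and cytotoxic T cells, were also among the 10 highest genes.

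Effector genes followed too. Of 7 cytotoxic and cytokine genes compared, 4 were at least 2-fold higher and none lower, with a median of 1.45. Xcl1 had 119 UMIs in 35 NK receptor-positive barcodes against 11 UMIs in 6 (3.31, 2.42 to 4.35). Ccl5 had 688 UMIs in 47 against 196 in 20 (1.69, 1.46 to 1.92), Nkg7 stood at 1.48 and Ctsw at 1.45. All 13 Gzmb UMIs and all 3 Gzma UMIs lay in the positive set, too few to compare. Il2rb, whose product passes on the IL-15 signal that NK cells depend on, had 226 UMIs in 47 against 62 in 23 (1.74, 1.33 to 2.17).

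T cell genes were on the other side. Of 9 T cell markers compared, 6 were at least 2-fold lower in NK receptor-positive barcodes and none at least 2-fold higher, with a median of -1.35. Cd6 had 3 UMIs against 33 (-3.58, -5.93 to -1.91), Cd5 4 against 21 (-2.52) and Trac 24 against 56 (-1.35, -2.10 to -0.63). Cd8b1 had 2 UMIs against 29 (-3.98, -7.09 to -2.0) while Cd8a had 19 against 21 (-0.27, -1.24 to 0.70), so the chains of the CD8 coreceptor did not follow each other. All 12 Cd4 and all 12 Foxp3 UMIs lay in NK receptor-negative barcodes. Trbc1 did not share this direction, with 106 UMIs against 76 (0.36, -0.08 to 0.80), and Trdc was higher in the positive set, at 28 UMIs in 12 barcodes against 7 in 2 (1.88, 0.65 to 3.32).

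Transcription factors and homing genes split both ways. Id2 (1.20) and Eomes (1.16) were higher in NK receptor-positive barcodes, Bcl11b (-1.23) and Lef1 (-1.71) lower, and Tcf7 stood at 0.46 (-0.21 to 1.15). Of 17 homing and memory genes, 3 were at least 2-fold higher and 4 lower, the latter Il7r (-2.40), S1pr1 (-2.05), which guides lymphocytes out of tissue, Itgam (-1.36) and Klf2 (-1.24), the factor that turns on S1pr1. Of 17 signalling genes, 3 were higher, Txk (1.38), Sh2d1a (1.23) and Fyn (1.06), and none lower. Among genes with at least 200 CPM in 1 set, which leaves out Cd8b1, Cd6 and Cd5, the 10 lowest included Il7r and the myeloid genes Lyz2 (-1.90), Ctss (-2.10), Cybb (-2.57) and Anxa1 (-1.72). The NK receptor-negative set holds the barcode with 40.5% neutrophil markers, and S100a9 stood at -1.10 (-1.19 to -1.01). Without barcodes over 5% neutrophil markers, 167 genes were at least 2-fold higher and 148 lower, in place of 188 and 171. The part of neutrophil RNA in the ratios of single lymphoid genes was not tested.

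**Figure D3:**
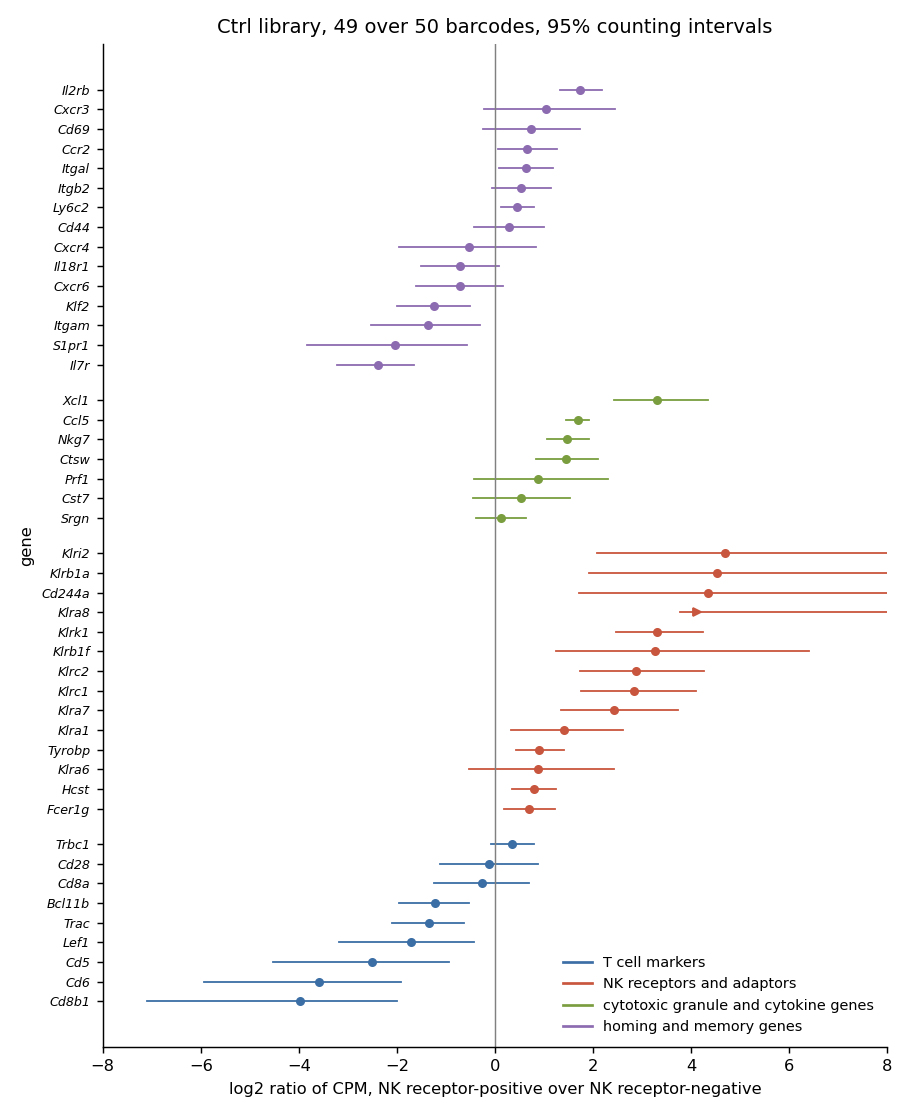
Points give the log2 ratio of CPM in 49 NK receptor-positive over 50 NK receptor-negative Ctrl barcodes and lines the 95% counting intervals, coloured by gene list, with some listed genes not drawn. Receptor genes lie to the right of 0 and most T cell markers to the left. The triangle marks a lower bound (Klra8), and lines that reach the edge run beyond it.

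Barcodes without any CD3 UMI were few. In Ctrl, 9 of 104 had no UMI of Cd3d, Cd3e or Cd3g, 7 had 1 and 88 had at least 2, and in cKO there were 4, 0 and 27. Since CD3 genes are selection genes, the 9 could enter only through Klrd1 (4 barcodes), Trbc2 (3) or both (2), so NK content among them is in part set by the selection, and the values that follow are a description. Over 2978 genes with at least 20 UMIs, 8.87% were at least 2-fold higher in the 9 than in the 88 and 15.4% at least 2-fold lower, with a median log2 ratio of 0.06. Of 8 NK cell markers, 4 were at least 2-fold higher and 1 lower, with a median of 0.98. Klrb1c stood at 1.39, Ncr1 at 1.28 and Klra8 at 2.35, although 18 of the 20 Klra8 UMIs came from 1 barcode. Of 9 T cell markers, none was higher and 3 were lower, among them Bcl11b with 2 UMIs against 76 (-2.01). The 88 hold the 5 Cd3d-only barcodes, and the 10 neutrophil markers had a median of -1.63, with 8 at least 2-fold lower in the 9 and none higher. Against the 83 others, 247 genes were at least 2-fold higher and 416 lower of 2845, and neutrophil markers had a median of -0.86, with 3 of 10 lower. NK and T cell markers then stood at a median of 1.03 and -0.55, and Bcl11b at -2.10 (-5.17 to -0.20). Leaving out all barcodes over 5% neutrophil markers gave 221 genes higher and 374 lower, in place of 264 and 458 against the 88. The part of neutrophil RNA in these ratios was not tested further.

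Single barcodes set much of the head of this comparison. The deepest of the 9 held 10427 of their 36095 UMIs, and no ratio is given without it. It had 3 Klrd1 UMIs, no other selection UMI and no T cell marker UMI. The highest genes were Cd74 (4.18), Ifi30 (4.11), Napsa (3.03), Lat2 (2.89), Gng10 (2.61) and Cst3 (2.46). Of these, Cd74, Ifi30 and Napsa serve antigen processing in B cells, monocytes and dendritic cells. A single barcode held 22 of the 23 Cd74 UMIs, all 22 Ifi30 UMIs, 11 of the 13 Napsa UMIs and 33 of the 39 Cst3 UMIs. The lowest was Ikzf2, with 1 UMI against 136 (-3.85, -9.17 to -1.35), ahead of Cybb (-3.62), Ikzf1 (-2.63), a factor of all lymphocytes, and Ltb (-2.20), the lymphotoxin beta gene. Without the Cd3d-only barcodes these stood at -3.94, -3.12, -2.68 and -2.28, whereas Retnlg and Mmp8, neutrophil genes that were also among the 10 lowest, stood at -0.05 (-1.0 to 0.78) and -0.44 (-3.56 to 1.57).

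T and NK barcodes, without the Cd3d-only ones, made up a smaller share in cKO. They were 1.13% of kept Ctrl barcodes (99 barcodes, 0.916 to 1.37%) and 0.337% of kept cKO barcodes (18 barcodes, 0.200 to 0.532%), which is 3.34-fold lower (2.01 to 5.87). All selected barcodes, Cd3d-only ones included, were 1.18% (0.967 to 1.43%) and 0.580% (0.394 to 0.822%), or 2.04-fold lower (1.35 to 3.15). Other cells differed as well. The B-lineage share was 4.25% in Ctrl and 0.580% in cKO, 7.33-fold lower (5.08 to 10.95), the pDC share was 0.819 and 0.131%, 6.25-fold lower, and neutrophil barcodes made up 37.2 and 57.0%. A share of a mixture with enriched c-Kit-positive cells also moves with the mixing, so the selected barcodes were also set against B-lineage barcodes. Some B-lineage progenitors carry c-Kit, so this ratio can move with the mixing as well. There were 0.278 selected barcodes per B-lineage barcode in Ctrl (0.222 to 0.346) and 1 in cKO (0.588 to 1.70), or 0.265 (0.210 to 0.331) and 0.581 (0.306 to 1.07) without Cd3d-only barcodes.

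The depth of the libraries bears on these numbers. The median kept barcode had 4940 UMIs in Ctrl and 8783 in cKO, so 3 selection UMIs were more easily reached in cKO. When every barcode was first thinned to 1000 UMIs, the selection found 50 barcodes in Ctrl, 2 of them with Cd3d UMIs alone, and 10 in cKO, none with Cd3d alone, beside 131 and 6 B-lineage barcodes. Without those 2, T and NK barcodes made up 0.546% of kept barcodes in Ctrl and 0.187% in cKO, and there were 0.366 and 1.67 per B-lineage barcode. With them, the Ctrl values were 0.569% and 0.382. The share was lower and the number per B-lineage barcode higher in cKO, as without thinning. In the mixture, a lower share cannot be told apart from more cells of other kinds.

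**Figure D4:**
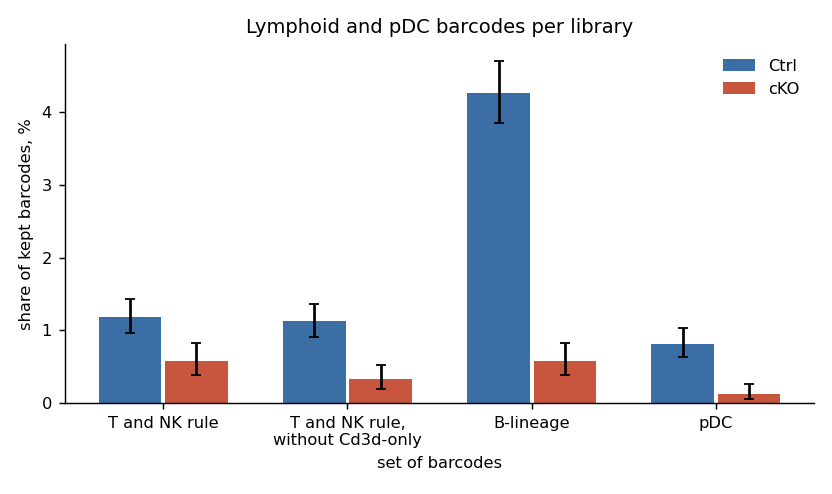
Bars give the percent of kept barcodes (8795 in Ctrl, 5347 in cKO) in each set, starting at 0, with exact 95% binomial intervals of counting error as lines. Each of the 4 sets is lower in cKO, from 1.18 to 0.580% for all selected barcodes and from 4.25 to 0.580% for the B lineage.

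The makeup of the T and NK barcodes in cKO rests on 18 barcodes. Without Cd3d-only barcodes, 12 of 18 cKO barcodes were NK receptor-positive (66.7%, 41.0 to 86.7%), against 49.5% in Ctrl, and the intervals overlap. These cKO barcodes were deeper, with a median of 6044.5 UMIs against 3166, and after thinning to 1000 UMIs the shares were 38.9% in cKO and 30.3% in Ctrl. Of cKO barcodes with at least 2 CD3 UMIs (14), 5 had Cd4, 1 had Cd8b1 and 8 had neither, where Ctrl had 7, 17 and 59 of 83. Cd8a had no UMI in cKO and 40 in Ctrl, a log2 ratio of -2.0 or lower against a floor of 3 UMIs. All 14 Cd4 UMIs and all 11 Foxp3 UMIs of cKO lay in NK receptor-negative barcodes, and the 3 Foxp3 barcodes all had Cd4 and Ikzf2.

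Expression in cKO over Ctrl depended on the Cd3d-only barcodes. With them, over 4480 genes with at least 20 UMIs, 6.58% were at least 2-fold higher in cKO and 28.2% at least 2-fold lower, with a median log2 ratio of -0.54. Median-of-ratios scaling moves every ratio up by 0.54 and gives 658 higher and 474 lower genes in place of 295 and 1263. Of 10 neutrophil markers, 8 were at least 2-fold higher and 2 (Elane and Mpo, of early neutrophils) at least 2-fold lower, with a median of 2.50, and S100a9 was at 110340 CPM against 19169. The highest genes were Cstdc5 (6.73), Stfa1 (at least 5.72), Ifitm1 (4.43), Ceacam10 (3.99) and Ifitm6 (3.27), the first 2 of the stefin A family of neutrophils. Of 11 T cell markers, 9 were at least 2-fold lower and none higher, with a median of -2.19.

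Without Cd3d-only barcodes, over 3738 genes, 4.15% were at least 2-fold higher and 13.3% at least 2-fold lower, with a median of -0.12, and several lists stood on the other side. Neutrophil markers had a median of -1.47, with 8 of 10 at least 2-fold lower, and S100a9 was at 5020 CPM against 12036. T cell markers had a median of -0.91, with 4 of 11 lower and 1 higher, and NK cell markers a median of 0.91, with 6 of 12 higher and 1 lower. GIMAP genes had a median of 0.38 with none of 8 past 2-fold, and of 18 signalling genes only Plcg1 (-1.20, -3.58 to 0.53) was.

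Gzma, Gzmb and Xcl1 had the highest ratios of the cytotoxic and cytokine genes. Of 10 compared, 3 were at least 2-fold higher and none lower, with a median of 0.85. Gzma had 50 UMIs in 3 of 18 cKO barcodes, 26 of them in 1 barcode, against 3 UMIs in 2 of 99 Ctrl barcodes, a log2 ratio of 5.80 (4.17 to 8.12). Xcl1 had 181 UMIs in 10 barcodes against 130 UMIs in 41 (2.22, 1.88 to 2.55), but 130 of the 181 came from 1 barcode. Gzmb had 20 UMIs in 7 against 13 in 7 (2.36, 1.28 to 3.49). Without the cKO barcode that held most of each, the ratios were 4.82 for Gzma, 0.57 for Xcl1 and 1.72 for Gzmb (8 of 20 UMIs in 1 barcode). Both granzymes and the chemokine Xcl1 thus rest on few barcodes. Ccl5 (0.92, 0.76 to 1.08) and Nkg7 (0.95, 0.64 to 1.25), found in 15 and 13 of the 18, lay just short of 2-fold. The top cKO barcode of each gene held 89 of the 502 Ccl5 UMIs and 36 of the 142 Nkg7 UMIs. Without that barcode the ratios were 0.73 and 0.66.

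Of 19 NK receptors and adaptors, 7 were at least 2-fold higher, among them Tyrobp (1.36), Ncr1 (1.31), Klra7 (1.17) and Fcer1g (1.02), and 3 lower, among them Klra8 (-1.09). Without the barcode with most UMIs of the gene, Klra7 stood at 0.76 and Klra8 at -0.57. Cd7 stood at 1.40 (0.91 to 1.87). Of 14 transcription factors, Foxp3 was higher (1.61, 0.29 to 2.92), and 4 were lower, among them Tcf7 (6 against 80 UMIs, -2.0, -3.49 to -0.81) and Bcl11b (9 against 82, -1.45, -2.63 to -0.45). Cd4 stood at 1.96 (0.74 to 3.20), but 1 cKO barcode held 9 of its 14 UMIs, and without it the ratio was 0.56. Foxp3 was at 1.0 without the barcode that held 4 of its 11 UMIs. Cd8b1, at 1 UMI against 31, was lower (-3.22, -8.56 to -0.63). Trac (-0.06) and Il2rb (0.14) differed by less than their counting intervals. Among the kinases related to Map4k4, Tnik had 4 UMIs against 40 (-1.58, -3.53 to -0.12) and Map4k2 4 against 36 (-1.43, -3.38 to 0.05), while Map4k1, the family member of lymphocytes, had 8 against 13 (1.04, -0.44 to 2.42).

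**Figure D5:**
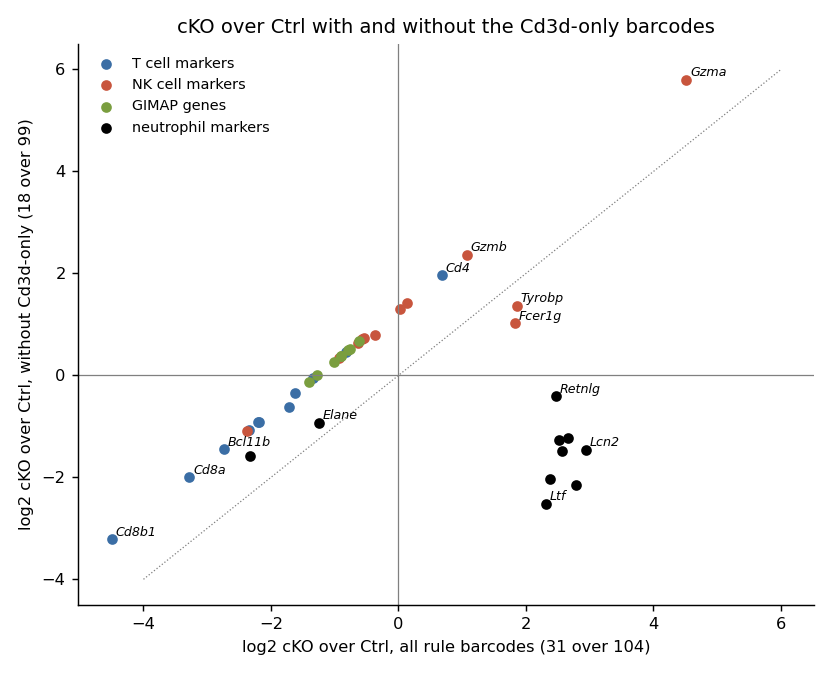
Each point is a gene of 4 lists, with its log2 ratio of CPM in cKO over Ctrl over all selected barcodes (31 over 104) on the horizontal axis and without Cd3d-only barcodes (18 over 99) on the vertical axis. The dotted line marks equal ratios: T, NK and GIMAP genes lie above it apart from Tyrobp and Fcer1g, Cd8a is plotted at its bound, and 8 of 10 neutrophil markers lie right of 0 and below 0.

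Among genes with at least 200 CPM in 1 set, which leaves out Cd8b1, the 5 lowest in cKO without Cd3d-only barcodes were Hba-a2 (-4.83), a globin gene, Igha (-4.25) and Igkc (-2.64), immunoglobulin genes, Ifitm3 (-3.20) and Ltf (-2.52), the lactoferrin gene of neutrophils. A single Ctrl barcode held 203 of the 497 Ltf UMIs, and the ratio without it was -1.80. The globin and immunoglobulin RNAs were also lower in cKO in neutrophil barcodes, where Igha had a UMI in 81.5% in Ctrl and 12.4% in cKO, Hba-a2 in 45.3 and 9.65%, and Igkc in 86.0 and 48.6%. Ltf, a neutrophil product, had a UMI in 90.1 and 91.7% of them. Ifitm3 was not lower there, with a UMI in 78.5% in Ctrl and 87.7% in cKO, or 798 and 1336 CPM. The part of RNA from other cells in the T and NK ratios was not tested.

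Markers of other cell types were summed over the 99 Ctrl and 18 cKO barcodes. The 10 neutrophil markers were all detected and took 3.15% of UMIs in Ctrl and 1.18% in cKO, with S100a9 the most counted, and in Ctrl 7 barcodes exceeded 5% while in cKO none did. Of 9 B cell markers, 9 were detected in Ctrl and 4 in cKO, at 0.123 and 0.0426% of UMIs, with Igkc (334 UMIs) and Ighm (29 UMIs) the most counted. Of 5 plasma cell markers, 3 and 2 were detected, at 0.0823 and 0.00906%, with Igha (254 UMIs) the most counted in Ctrl and Mzb1 and Sdc1 at 0. Monocyte and macrophage markers took 0.0228 and 0.00725% (7 and 4 of 7 detected, Ms4a6c the most counted), erythroid markers 0.0660 and 0.0145% (6 and 3 of 7, Hba-a2 and Car2 the most counted), progenitor markers 0.00597 and 0.00997% (5 and 3 of 7, Kit the most counted, Flt3 and Mecom at 0 in Ctrl) and pDC markers 0.0182 and 0.0335% (6 and 5 of 6). T cell markers took 0.159 and 0.137% and NK cell markers 0.198 and 0.426%. Of these marker lists of other cell types, the neutrophil list thus took the largest share of UMIs in both libraries. The lists differ in size, so their sums do not rank the cell types by RNA. Beyond leaving out barcodes over 5% neutrophil markers or the Cd3d-only ones, the part of neutrophil RNA in the results was not tested.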

How the data were processed

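The authors deposited raw UMI counts per gene and barcode for 1 Ctrl and 1 cKO library, over 32285 genes. Per the labels, they were made with Cell Ranger 5.0.0 on mm10 from a BMKMANU DG1000 3′ kit, and no normalization was applied. Quality filters, the selection, thinning to 1000 UMIs (fixed seed), sums per set, CPM and log2 ratios were computed here with numpy 2.4.6, pandas 2.3.3 and scipy 1.17.1 under Python 3.11.15, and figures were drawn with matplotlib 3.10.9. Intervals are exact (Poisson for sums, Clopper-Pearson for shares, binomial for ratios of 2 sums), and the floor for a count of 0 is 3 counts. Ratios were computed for genes with at least 20 UMIs over both sets, without the selection genes. They were also run on simulated sums drawn with counting error alone. Those sums leave out the spread between barcodes, so the run does not check the intervals against that spread. The B-lineage and pDC sets needed 3 UMIs of Cd79a or Siglech. No doublet caller was run, although the study's methods used one, and the deposited matrices were not filtered for doublets. The deepest selected barcodes, Cd3d-only ones aside, held 10427 UMIs in Ctrl and 12850 in cKO.

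The selection and all 22 gene lists were chosen with earlier results of these data known. Genes named are those of the lists, the 10 highest ratios of selected over other Ctrl barcodes, the 10 highest and 10 lowest between CD3-negative and CD3-positive barcodes and the 5 highest and 5 lowest in cKO over Ctrl, each with at least 200 CPM in 1 set. The same ranks were applied to the NK receptor division and without Cd3d-only barcodes. 1 listed symbol, Mx1, had no match among the genes of the counts, and some listed genes are not reported here. Coordinates are from GENCODE vM21, where 32158 gene identifiers of the counts were found and 31436 carried an equal symbol. Alternatives covered the selection thresholds, quality floors, scaling, count minimums and sets left out.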

Additional observations from a re-analysis of the deposited data

Results flagged for a closer look

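Some barcodes with at least 3 UMIs of the selection genes were left out by the other terms of the selection and are not among the selected barcodes. Those that passed the quality filters count among the other kept barcodes above. In Ctrl, 5 were left out by Siglech, 8 by Mki67 (2 of them Cd3d-only) and 2 by the floor of 1000 UMIs. In cKO, 1 was left out by Cd79a and 2 by Siglech. Taking in those left out by Cd79a, Siglech or Mki67 gave 117 barcodes in Ctrl and 34 in cKO. Taking in those under the UMI floor gave 106 in Ctrl. The barcodes left out are given because their UMIs of the selection genes lie outside the selected barcodes. Having at least 3 such UMIs is how they were found, so it is no finding about them, and the Cd3d-only ones are of the kind that went against the label of T and NK cells. The barcodes left out by Siglech and by Mki67 had median neutrophil marker shares of 1.5 and 1.51% in Ctrl. Whether they are pDC, dividing T or NK cells or barcodes of more than 1 cell was not tested.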

How the results depend on the processing

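Over 19 results and 151 alternative values, 101 stayed within the counting interval or 1.5 times the reported count and 50 moved beyond it. The Map4k4 ratio changed sign, to 0.28, under median-of-ratios scaling, inside a counting interval that spans 0. Lowering the threshold to 2 selection UMIs gave 1.59 and 1.18% of kept barcodes in Ctrl and cKO (63 in cKO), 0.374 and 2.03 per B-lineage barcode and 2270 genes lower in cKO. Raising it to 5 gave 0.921 and 0.337% (18 in cKO), 0.217 and 0.581 per B-lineage barcode, and 118 genes higher and 496 lower in cKO. With Cd79a, Siglech and Mki67 at 0, the Ctrl share was 0.955%, and with B-lineage barcodes at 5 Cd79a UMIs the Ctrl ratio was 0.481. Leaving out barcodes over 5% neutrophil markers gave 18 cKO barcodes (0.337%) and 144 genes higher and 462 lower. Alternatives added after the data were seen gave close values: without Cd3d-only barcodes 18 (0.337%, 0.581 per B-lineage barcode) with 155 higher and 497 lower, and with Cd3d dropped from the sum 18 (0.337%, 0.581) with 134 higher and 461 lower. Thinning every barcode to 1000 UMIs first, also added, gave 50 (0.569%, 0.382 per B-lineage barcode) in Ctrl and 10 (0.187%, 1.67 per B-lineage barcode) in cKO, and leaving out 2 Ctrl barcodes with Cd3d alone then gave 0.546% and 0.366 in Ctrl. Median-of-ratios scaling gave 658 genes higher and 474 lower in cKO. Minimums of 50 UMIs gave 162 and 442, and of 1 UMI 683 and 2816. For CD3-negative barcodes, a minimum of 50 UMIs gave 42 higher and 95 lower, and of 1 UMI 3231 higher, and without Cd3d-only barcodes, also added, 247 were higher and 416 lower. For the NK receptor division, a minimum of 50 UMIs gave 41 and 37. The share of NK receptor-positive barcodes was 38.4% in Ctrl and 61.1% in cKO at 2 UMIs, and 30.3 and 38.9% in Ctrl and cKO after thinning. Listed genes found in at least 10% of barcodes went to 82 in Ctrl and 55 in cKO after thinning. Leaving out the barcode with most UMIs of a gene, added after the data were seen, took Xcl1, Cd4, Klra7 and Klra8 under 2-fold between cKO and Ctrl (0.57, 0.56, 0.76 and -0.57). The cause of these changes was not tested, beyond the fewer UMIs or barcodes that an alternative leaves.

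No paired analysis was possible because each group has 1 library, and leaving out a replicate was not possible for the same reason. The number of barcodes limits the cKO values, with 18 besides the Cd3d-only ones, and single barcodes hold much of the RNA of some genes.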
